A study of Homo sapiens with 9 samples.

Results

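The 2 organophosphate exposures of this study were set directly against each other: NT2 cells given 1 µM paraoxon and NT2 cells given 5 µM mipafox, each for 4 days (96 h), with 3 arrays per exposure. The members were thus 6 of the 9 arrays of the series, chosen by their labels, and the other 3 arrays carried RNA of cells given neither agent. All 9 cultures received 10 µM retinoic acid in the same medium, so the control cultures were differentiating too. NT2 is a human embryonal carcinoma line, grown here as 1 line, and retinoic acid directs it towards neural progenitors. The comparison answers how far the 2 exposures differed in mRNA after the same time. The doses differed, so it sets 1 exposure against the other and not 1 compound against the other at a common dose, and it is the only pair of compounds in the series. Replicates are named by letter, from A to C. The study's methods call them technical replicates and the series text calls them biological, so the spread between arrays may be technical. All 3 paraoxon arrays and mipafox B and C lay on slide 2, while mipafox A and the 3 control arrays lay on slide 1. Each comparison was therefore also made on the 5 exposed arrays of slide 2 alone.

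Organophosphates such as these phosphorylate or phosphoramidate the active serine of serine hydrolases. Paraoxon, a diethyl phosphate with nitrophenol as its leaving group and the active oxon of the insecticide parathion, is a strong inhibitor of acetylcholinesterase and is not known to cause delayed neuropathy. Mipafox, a phosphorodiamidic fluoride with isopropylamino groups, also inhibits neuropathy target esterase, the lysophospholipase encoded by PNPLA6, and does cause delayed neuropathy. In embryonal carcinoma cells retinoic acid lowers the pluripotency network and raises patterning and neural genes, and the first days of this change were those measured here.

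The values below are log2 signals minus the array's 75th percentile, and a difference is paraoxon minus mipafox on this log2 scale. The 75th percentile of the signal ranged from 818 to 1590 on the paraoxon arrays and from 802 to 1261 on the mipafox arrays. Between 65.7% and 71.5% of the 42405 probes were well above background on the exposed arrays. Probe signals of a paraoxon and a mipafox array on slide 2 correlated at 0.990, the median of 6 such pairs. The median was 0.986 over the 4 pairs of the same exposure on that slide and 0.982 over the 2 pairs of mipafox arrays from different slides. Arrays of different exposures on slide 2 were thus no less alike than arrays of the same exposure. Among the 6 exposed arrays the closest pair was paraoxon A and mipafox B, with a correlation of 0.995 and 0.807% of probes more than 1 apart. Paraoxon B and mipafox C correlated at 0.992, slightly above the correlation of either with the other 2 arrays of its own exposure (0.991 for paraoxon A and B). By the median absolute difference, paraoxon B was closer to paraoxon A, at 0.187, than to mipafox C, at 0.254.

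In the limma fit of all 9 arrays, 0 of 29134 probes (0%) were called different at an adjusted p under 0.05 and a difference beyond 1. No adjusted p was below 0.998. Without adjustment, 1172 probes had a p under 0.05, of which 836 were higher (2.87%) and 336 lower (1.15%) with paraoxon. Beyond a difference of 1 as well, the unadjusted limit from here on, 66 probes (0.227%) were higher and 8 (0.0275%) were lower with paraoxon. That split of 66 to 8 became 49 to 14 after quantile normalization, 7 to 0 with normexp background correction and 9 to 0 in the authors' processed values. On the 5 arrays of slide 2, limma also called 0 of 29133 probes, with a smallest adjusted p of 0.95. There 947 probes had an unadjusted p under 0.05, 534 higher (1.83%) and 413 lower (1.42%). The unadjusted limit was passed by 26 higher (0.0892%) and 8 lower (0.0275%) probes, a split that quantile normalization turned into 19 to 14. Of the 74 probes past that limit in the fit of all arrays and the 34 on slide 2, 11 were common to both, which is 14.9% of the first and 32.4% of the second.

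The absolute difference between the exposures had a median of 0.147 over all probes and was beyond 1 at 138 probes (0.474%). The 95% interval of a difference had a median half-width of 0.451, and for 24983 probes (85.8%) the whole interval lay between -1 and 1. On slide 2 the half-width was 0.519 and this held for 23166 probes (79.5%). No probe in either fit had an interval lying wholly beyond 1. For most probes a difference as large as the limit of the call was thus outside the interval, while smaller differences were not. The 74 probes were mostly dim, with a median signal of -5.66 against -2.05 over all probes tested, and 26 of them were well above background on all 6 exposed arrays.

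**Figure D1:**
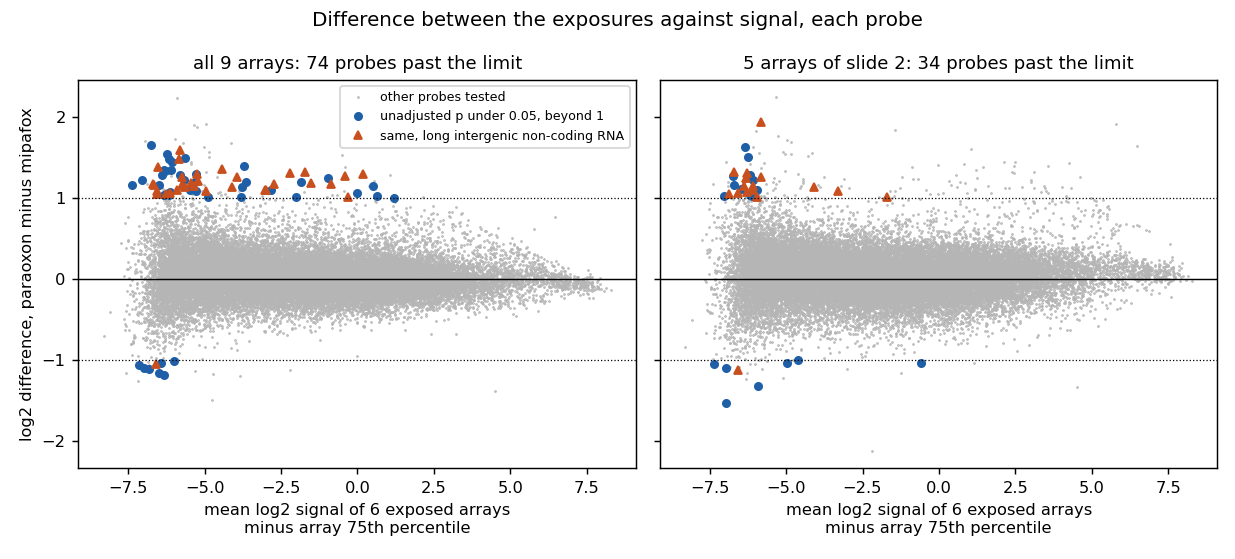
Log2 difference (paraoxon minus mipafox) of each tested probe against its mean log2 signal on the 6 exposed arrays, in the fit of all 9 arrays (left) and of the 5 arrays of slide 2 (right). Coloured points mark the 74 and the 34 probes past the unadjusted limit, triangles those named as long intergenic non-coding RNA, dotted lines a difference of 1. Most coloured points lie at low signal and above 0.

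The number of probes past the unadjusted limit depended on single arrays. It went from 74 to 133 without paraoxon A, 124 without paraoxon B, 43 without mipafox A, 224 without mipafox B and 194 without mipafox C. On slide 2 it went from 34 to 71, 95 and 69 without paraoxon A, B and C, and to 710 and 64 without mipafox B and C. No probe was called in any of these fits. A fit of all arrays with slide as a term takes the slide difference from the mipafox arrays alone, because only mipafox lay on both slides. Its differences were those of slide 2, and it left 43 probes past the unadjusted limit.

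Mipafox A was mostly the lowest mipafox array at the probes past the unadjusted limit that were higher with paraoxon. At 52 of the 66 (78.8%) its signal was below that of both mipafox B and mipafox C, against 31.3% of all tested probes. At these 66 probes paraoxon exceeded mipafox B and C by a median of 0.84, and mipafox B and C exceeded mipafox A by a median of 0.95. The 66 were chosen with mipafox A among the values, which favours a low mipafox A, so this share and these medians are a description. Of the 26 probes higher with paraoxon past the limit on slide 2, 4 (15.4%) had mipafox A below both. Those were chosen without mipafox A, which favours low mipafox B and C. Spike-in probes had a mean log2 processed signal of 8.11 on mipafox A, within the 7.54 to 8.19 of the other exposed arrays, against 9.29 to 9.55 on the controls of the same slide. The part of the slide in these values was not tested.

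Among probes with a gene symbol and a signal well above background on all 6 exposed arrays, 4 genes had a difference above 1 with every paraoxon array above every mipafox array, and 0 genes had the opposite. They were TXNDC17, a thioredoxin-like cytosolic disulfide reductase, SCD5, a desaturase of fatty acids, CMTM1, a chemokine-like factor family protein with membrane-spanning segments, and KRTAP10-9, a keratin-associated protein of hair. Non-overlap alone in this direction was met by 5.12% of all tested probes, and in the other by 3.84%. The first 30 bases of the 60-base probes that gave these values are printed to show what was hybridized, 5′ to 3′ and in lower case throughout because no base is singled out, with the other SCD5 probes for comparison.
TXNDC17, A_33_P3209386: tttttcattttcccgatgtgttattttgct
CMTM1, A_23_P106661: tcgcatgctgtcacccattccagcctaaat
KRTAP10-9, A_33_P3293753: actgtgtgcctgtctgctgtaagcctgtct
SCD5, A_33_P3386288: tacatactcattgtaaccactccgaaaagt
SCD5, A_24_P385134: gaccatcagatcttgagaaccaacagttat
SCD5, A_33_P3258660: agaacatcgtctggaggaatgtcgtcctga

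The TXNDC17 probe (chr17:6547783-6547842 of hg19, plus strand) gave a signal of 0.92, 1.28 and 1.05 with paraoxon A, B and C. With mipafox A, B and C the signal was -0.67, 0.35 and 0.13, and in control cultures it was -0.82 ± 0.10 (SD, n = 3 arrays). Mipafox B and C lay between paraoxon and the slide 1 arrays, and mipafox A lay close to the controls. The difference was 1.15 ± 0.25 (SE), with a 95% interval from 0.59 to 1.70 and an adjusted p of 0.998 in limma. On slide 2 alone it was 0.84, with an interval from 0.39 to 1.30.

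The SCD5 probe A_33_P3386288 (chr4:83582046-83582105, minus strand) gave -2.88, -2.76 and -3.44 with paraoxon and -5.25, -4.00 and -4.03 with mipafox. The difference was 1.40, with an interval from 0.66 to 2.15, and on slide 2 it was 0.99. The other SCD5 probes, at chr4:83551061-83551120 and chr4:83719504-83719563, lie on either side of it. Their differences were -0.02 and -0.13, so that only 1 of the 3 probes of this gene was higher with paraoxon. CMTM1 (chr16:66612972-66613031, plus strand) was at -2.33, -2.03 and -2.44 with paraoxon and at -4.00, -3.03 and -3.08 with mipafox. Its difference was 1.10 (interval 0.51 to 1.70), and 0.79 on slide 2. KRTAP10-9 (chr21:46047633-46047692, plus strand) was at -1.71, -1.13 and -1.62 with paraoxon and at -3.06, -2.19 and -2.27 with mipafox. Its difference was 1.02 (interval 0.43 to 1.61), and 0.74 on slide 2. It belongs to a family of closely similar genes, and whether the probe reads other members was not tested. The differences of all 4 probes stayed positive under the other normalizations and in the authors' processed values, and none passed the adjusted limit. The probes were chosen for non-overlap. The slide and replicate terms and the omission of an exposed array therefore could not turn their sign, and those fits are no check of it. TXNDC17, SCD5 and KRTAP10-9 are also among the genes the study lists for paraoxon against control, so their direction is not independent of these arrays.

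**Figure D2:**
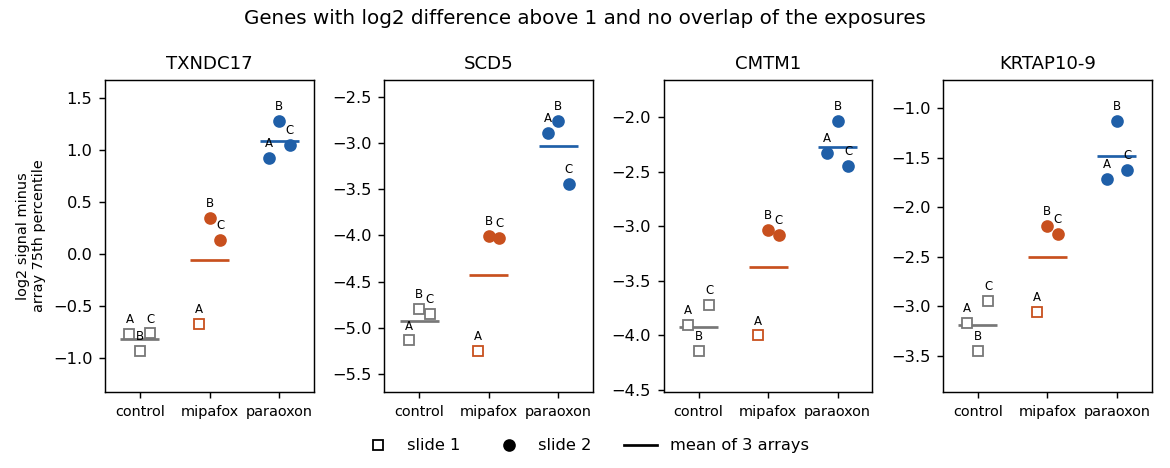
Log2 signal minus the array's 75th percentile of TXNDC17, SCD5 (A_33_P3386288), CMTM1 and KRTAP10-9 on each of the 9 arrays. Letters name the arrays, open squares lie on slide 1, filled circles on slide 2 and lines are means of 3 arrays. In each panel mipafox A sits near the 3 controls, and mipafox B and C sit between them and the 3 paraoxon arrays.

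On slide 2 alone, the same rule gave NCRNA00290, a non-coding RNA, and ACR, the sperm protease acrosin, on the paraoxon side. It gave SSBP3, a partner of LIM-domain transcription complexes, and ODZ3, the teneurin TENM3 of neuronal wiring, on the mipafox side. Non-overlap on slide 2 was met by 11.8% of probes with paraoxon higher and by 8.42% with mipafox higher. Mipafox A, which this fit left out, lay among the paraoxon arrays or beyond them at all 4 and not with mipafox B and C. For NCRNA00290 the paraoxon signals were -5.79, -5.83 and -5.03, and those of mipafox A, B and C were -5.66, -6.60 and -6.71. Its slide 2 difference was 1.10 (interval 0.41 to 1.80). For ODZ3 the paraoxon signals were -4.58, -4.82 and -5.60, and those of mipafox were -4.64, -4.25 and -3.74. Its slide 2 difference was -1.01 (interval -1.85 to -0.16). For SSBP3 the paraoxon signals were -1.20, -1.04 and -0.34, and those of mipafox were -1.36, -0.23 and 0.59. It differed by -1.04 on slide 2 (interval -1.92 to -0.17). Its other probe gave -0.92, but it covers almost the same span (chr1:54692804-54693957 against chr1:54692792-54693945) and is not a separate reading. ACR differed by 1.57, with an interval from -0.08 to 3.23 that includes 0, since paraoxon C at -3.14 stood apart from paraoxon A at -5.06 and B at -5.43. The other ACR probe differed by 0.01.

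Of the 15877 genes taken by their brightest probe, 9 (0.0567%) passed the unadjusted limit with paraoxon higher and 1 (0.0063%) with paraoxon lower. Besides TXNDC17, CMTM1 and KRTAP10-9, those named here after their values were seen include KIAA1524, at 1.65, and WDR38, at 1.49, while USP2, a ubiquitin protease, was the 1 on the other side, at -1.07. These 3 probes were well above background on 4, 3 and 4 of the 6 exposed arrays. A probe could enter the test through 1 treatment alone, so the filter favours a difference at a probe that is dim elsewhere. KIAA1524 and WDR38 were at -5.91 and -5.43 with paraoxon, -7.57 and -6.92 with mipafox and -7.51 and -6.85 in control cultures. On slide 2, 5 genes (0.0315%) passed in each direction. The SCD5 probe above is not the brightest of its gene and is not among these counts.

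The targets of the compounds were measured at the mRNA level. Of 24 esterases and other serine hydrolases, 7 were higher and 17 lower with paraoxon, and none had an unadjusted p under 0.05. The median difference was -0.10, against -0.02 over all 15877 genes taken by their brightest probe. PNPLA6, which encodes neuropathy target esterase, was at -0.82, -0.99 and -0.90 with paraoxon and at -0.66, -0.59 and -0.63 with mipafox. The exposures did not overlap, but the difference was -0.27 with an interval from -0.64 to 0.09, and the 3 control arrays spanned both, from -1.03 to -0.45. ACHE, acetylcholinesterase, differed by -0.08 (interval -0.42 to 0.25), and BCHE, butyrylcholinesterase, by 0.24 (interval -0.17 to 0.66). CES2, a carboxylesterase, differed by -0.47 (interval -1.05 to 0.10), with paraoxon C at -0.97 inside the mipafox range. For CES1, another carboxylesterase, the arrays of each exposure were far apart. They stood at -4.31, -6.53 and -4.19 with paraoxon and at -3.29, -4.31 and -6.24 with mipafox. The interval, from -2.37 to 1.58, thus leaves large differences undecided in both directions. The second CES1 probe differed by 0.05 (interval -0.42 to 0.51). LYPLA1, an acyl-protein thioesterase, was higher with paraoxon on every array, by 0.38 (interval -0.01 to 0.78), and its second probe differed by 0.07. PON2, a lactonase of the paraoxonase family, differed by 0.16 (interval -0.30 to 0.62).

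Of 14 tested genes of organophosphate and xenobiotic metabolism, 3 were higher and 11 lower with paraoxon, with a median of -0.07. EPHX1, microsomal epoxide hydrolase, differed by -0.47 (interval -1.02 to 0.08) and GSTM4, a glutathione transferase, by -0.39 (interval -0.88 to 0.10). On slide 2 they differed by -0.70 (interval -1.11 to -0.29) and -0.51 (interval -0.93 to -0.10). Mipafox A at -1.80 for EPHX1 lay within the paraoxon values of -1.85, -1.91 and -1.71. Of 15 tested genes of acetylcholine synthesis, storage and receptors, 5 were higher and 10 lower, with a median of -0.10. The muscarinic receptor gene CHRM1 had an unadjusted p under 0.05, with a difference of -0.67 (interval -1.16 to -0.18), but its probe was well above background on only 2 of the 6 exposed arrays. The nicotinic subunit gene CHRNB2 differed by -0.17 (interval -0.48 to 0.14).

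All 9 embryonal carcinoma markers and 6 of 7 progenitor markers were well above background on all 6 exposed arrays, SOX1 of the latter on none. In RNA of whole cultures, fewer cells of a type and less RNA per cell cannot be told apart. So were 6 of 8 neuron markers, 3 of 5 glia markers and 3 of 10 markers of endoderm, mesoderm and trophoblast. The astrocyte genes GFAP and AQP4 of the glia class, and AFP, EOMES and T of the last class, were well above background on none. No marker of these classes had an unadjusted p under 0.05, and the largest difference among the neuron markers was that of TUBB3. TUBB3, the neuronal beta-tubulin, was at 3.05, 3.29 and 3.20 with paraoxon and at 3.45, 3.49 and 3.53 with mipafox. Its difference was -0.31 (interval -0.65 to 0.03), with controls from 3.22 to 3.64. NES, the progenitor filament nestin, also did not overlap and differed by -0.14 (interval -0.50 to 0.21). POU5F1 and SOX2, core factors of pluripotency, differed by 0.02 and 0.16, and NANOG by -0.27, with no interval reaching beyond 1. PAX6, a neural transcription factor, differed by 0.08 and MAP2, a dendrite protein, by 0.07. Second probes gave -0.24 for POU5F1 and -0.16 for PAX6. For POU5F1, SOX2, PAX6 and MAP2 the sign turned when mipafox C was left out, to -0.23, -0.09, -0.04 and -0.09.

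**Figure D3:**
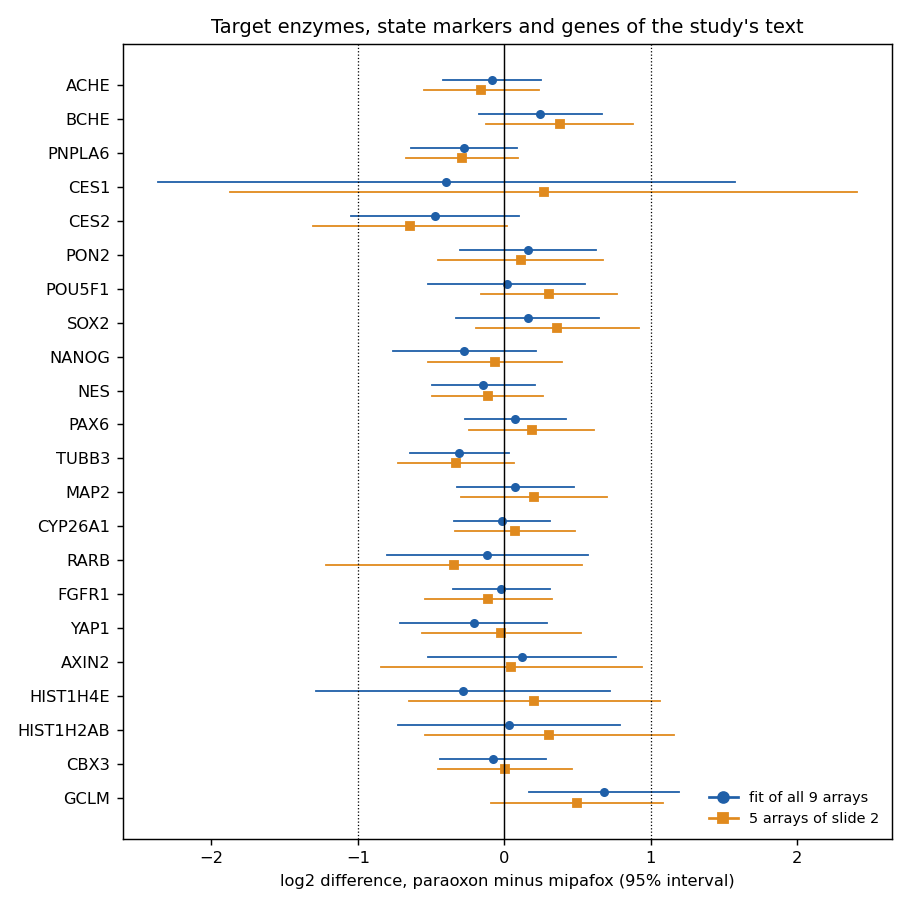
Log2 difference (paraoxon minus mipafox) with its 95% interval for 22 genes, in the fit of all 9 arrays (circles) and on the 5 arrays of slide 2 (squares). Dotted lines mark -1 and 1. In the fit of all arrays every interval but that of GCLM includes 0, and the interval of CES1, from -2.37 to 1.58, is the widest.

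Of 25 retinoic acid response genes, 8 were higher and 17 lower with paraoxon, with a median of -0.09. None had an unadjusted p under 0.05, and for all 25 the interval lay within 1. CYP26A1, the retinoic acid hydroxylase, was at 6.09, 5.87 and 5.94 with paraoxon and at 6.16, 5.99 and 5.81 with mipafox, a difference of -0.02 (interval -0.35 to 0.31). RARB, a retinoic acid receptor, differed by -0.12 (interval -0.80 to 0.57), and its second probe by 0.006. CRABP1, a retinoic acid binding protein, had the smallest p of the list and differed by -0.43 (interval -0.93 to 0.06). In the pluripotency list, GDF3, a growth factor of pluripotent cells, was at -1.09, -1.33 and -1.11 with paraoxon and at -0.77, -0.81 and -0.72 with mipafox. Its difference was -0.41 (interval -0.71 to -0.12), with an unadjusted p of 0.012. HES5, a Notch target of progenitors, differed by -0.45 (interval -0.89 to -0.01). On slide 2, without mipafox A, it differed by -0.27 and the interval, from -0.69 to 0.15, included 0. FOXA2, an endoderm and floor plate factor, differed by -0.51 (interval -0.95 to -0.06). An unadjusted p under 0.05 was met by 1.51% of all genes with paraoxon higher and by 1.32% with paraoxon lower (1.12% and 1.72% on slide 2), and none of these 3 genes passed after adjustment.

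Among stress lists, the unfolded protein and amino acid response had 14 of 20 genes higher with paraoxon, with a median of 0.12. Of all genes, 46.6% were higher. ASNS, asparagine synthetase, was at 4.50, 4.70 and 4.74 with paraoxon and at 4.54, 4.03 and 3.71 with mipafox, a difference of 0.55 (interval 0.10 to 1.01). Mipafox A lay within the paraoxon range, and on slide 2 the difference was 0.78. DDIT4, a stress-induced inhibitor of mTORC1, differed by 0.39 (interval 0.00 to 0.78), and by 0.29 on slide 2 (interval -0.20 to 0.79). These were the only genes of the list with an unadjusted p under 0.05, and on slide 2 the median of the list was 0.23. The 3 paraoxon arrays had medians of 0.05, 0.06 and 0.14 relative to the 6 exposed arrays, and mipafox A, B and C had 0.12, -0.06 and -0.18, so the exposures overlapped through mipafox A.

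The NRF2 and oxidative stress list had 5 genes higher and 15 lower of 20, with a median of -0.07. Of the 20, 3 had an unadjusted p under 0.05, all higher, where 1.51% of all genes were higher at that limit. On slide 2, 0 of the list had such a p in either direction. GCLM, the modifier subunit of the enzyme that starts glutathione synthesis, was at 2.86, 2.59 and 2.81 with paraoxon and at 1.71, 2.58 and 1.93 with mipafox. The difference was 0.68 (interval 0.17 to 1.19), with mipafox B close to paraoxon B, the lowest paraoxon array. On slide 2 it was 0.50, and the interval from -0.09 to 1.08 included 0. GCLM was also 1 of the genes the study lists for paraoxon, so its direction is not independent of these arrays. SLC7A11, the cystine transporter that feeds glutathione synthesis, was at 0.99, 1.44 and 1.23 with paraoxon and at 0.85, 0.74 and 0.90 with mipafox, a difference of 0.39 (interval 0.05 to 0.72), whose slide 2 interval, from -0.08 to 0.87, also included 0. NQO1, a quinone reductase, differed by 0.30 (interval 0.03 to 0.58), and by 0.26 on slide 2 (interval -0.12 to 0.65). In the cholesterol synthesis list, 13 of 24 genes were higher, with a median of 0.01. INSIG1, which holds SREBP in the endoplasmic reticulum, was at 2.54, 2.82 and 2.43 with paraoxon and at 2.41, 1.92 and 1.93 with mipafox, a difference of 0.51 (interval 0.11 to 0.91). The other genes of that list had no unadjusted p under 0.05. In the p53, heat shock and metallothionein lists no gene had an unadjusted p under 0.05, and the medians were -0.03, -0.06 and 0.12. Among immediate early genes JUND, an AP-1 subunit, was at -1.23, -1.80 and -1.75 with paraoxon and at -1.06, -1.08 and -1.09 with mipafox, a difference of -0.52 (interval -1.01 to -0.03), with a slide 2 interval from -1.06 to 0.03.

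**Figure D4:**
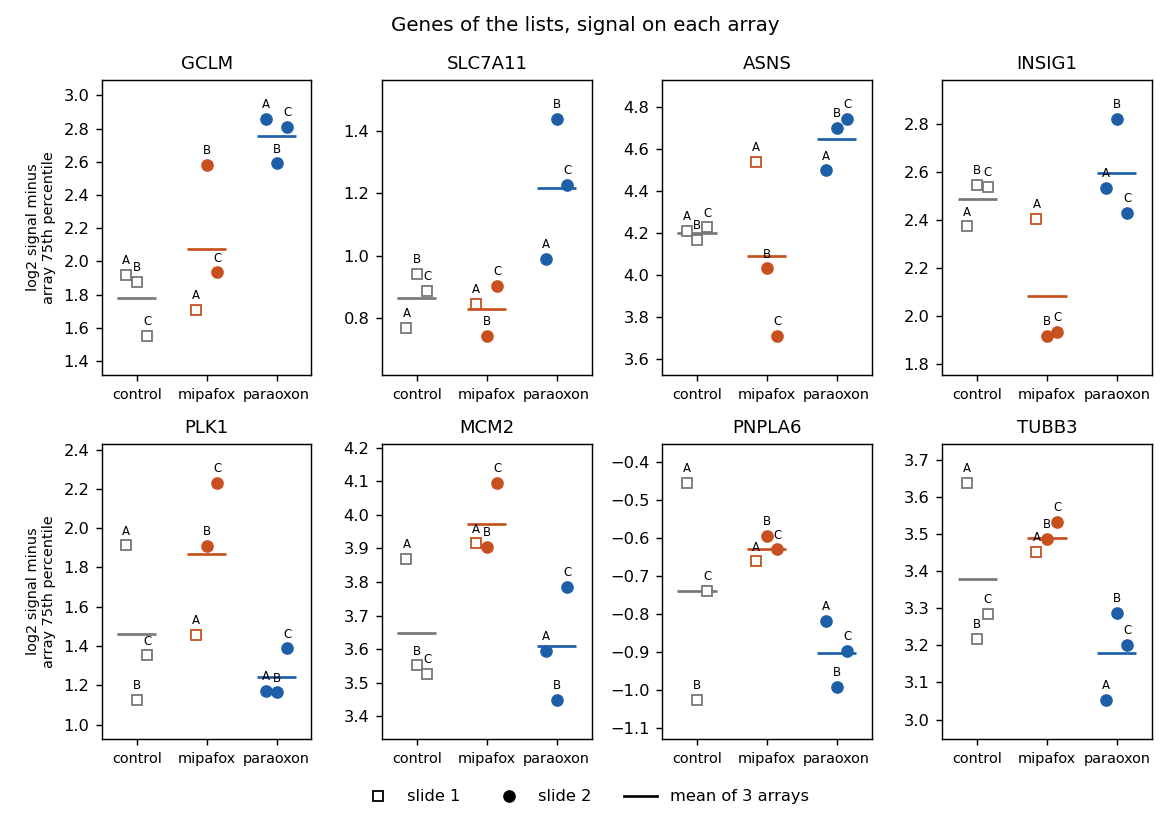
Log2 signal minus the array's 75th percentile on each of the 9 arrays for 8 genes of the lists. Letters name the arrays, open squares lie on slide 1, filled circles on slide 2 and lines are means of 3 arrays. In 7 panels the exposures do not overlap, ASNS being the exception, and the control arrays of PLK1, PNPLA6 and TUBB3 span much of the range of both. Most of these genes were shown for a small p in their list, which favours non-overlap. Of all genes, 4.19% did not overlap with paraoxon higher and 5.15% with mipafox higher.

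Of 26 genes of DNA replication and mitosis, 10 were higher and 16 lower with paraoxon, with a median of -0.10. PLK1, a mitotic kinase, was at 1.17, 1.16 and 1.39 with paraoxon and at 1.46, 1.91 and 2.23 with mipafox. The difference was -0.63 (interval -1.18 to -0.07), and the other PLK1 probe gave -0.58. MCM2, a subunit of the replicative helicase, was at 3.59, 3.45 and 3.79 with paraoxon and at 3.92, 3.90 and 4.10 with mipafox, a difference of -0.36 (interval -0.71 to -0.01), with a slide 2 interval from -0.83 to 0.05. The paraoxon arrays lay wholly below the mipafox arrays at 4 of the 26 genes and wholly above them at 1, where 5.15% and 4.19% of all genes did so. Control A stood at 1.91 for PLK1, among the mipafox arrays, while control B and C stood at 1.13 and 1.35. For 2 of the 24 lists the medians of the exposures did not overlap. These were DNA replication and mitosis and FGF receptors, ligands and feedback, both with a median difference of -0.10. The margins were narrow, between -0.015 on paraoxon B and -0.013 on mipafox A for the first. For the second they lay between 0.019 on paraoxon C and 0.036 on mipafox A. With 3 arrays against 3 an exact two-sided permutation p cannot go below 0.1, so such a separation does not set a list apart. The FGF list had 14 of 17 genes lower and none with an unadjusted p under 0.05. FGFR1, a receptor of that list, differed by -0.02 (interval -0.35 to 0.31) and its second probe by -0.28 (interval -0.69 to 0.13). Against control the 2 probes went opposite ways. The first had means of 3.18 with paraoxon, 3.20 with mipafox and 2.73 in control cultures, and the second -0.95, -0.67 and -0.0007. YAP1, the Hippo pathway co-activator, differed by -0.21 (interval -0.71 to 0.29) and AXIN2, a Wnt target, by 0.12 (interval -0.52 to 0.76), with -0.09 for its second probe. In glycolysis and hypoxia, 18 of 27 genes were lower, with a median of -0.07, and PKM2, a pyruvate kinase, differed by -0.47 (interval -0.95 to 0.01).

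Further genes among those of smallest p in their lists had intervals that include 0 in the fit of all arrays. FABP7, a fatty acid binding protein of radial glia, differed by 0.36 (interval -0.02 to 0.75). NCAM1, a neural adhesion molecule, differed by 0.23 (interval -0.10 to 0.56), with -0.12 for its second probe. PRDM14, a pluripotency regulator, differed by -0.80 (interval -1.69 to 0.09), with a wide spread. The histone chaperone ASF1B was lower on every paraoxon array, with a difference of -0.39 (interval -0.80 to 0.02), and -0.45 on slide 2 (interval -0.89 to -0.01). TCF7L1, a Wnt effector, differed by -0.54 (interval -1.13 to 0.05) and WWTR1, the YAP1 paralogue TAZ, by -0.39 (interval -0.85 to 0.07), the latter by -0.56 on slide 2 (interval -0.97 to -0.16). RRM2B, a p53-induced ribonucleotide reductase subunit, differed by 0.55 (interval -0.03 to 1.12) and HSPA8, a constitutive chaperone, by -0.35 (interval -0.77 to 0.07). None passed after adjustment in either fit.

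Replication-dependent histone genes, whose mRNAs end in a stem-loop and not in a poly(A) tail, varied more between arrays of an exposure than between exposures. Of 64 tested genes, 49 were lower with paraoxon, with a median of -0.16, and the interval of only 12 lay within 1. Relative to the 6 exposed arrays, the median histone signal of the paraoxon arrays was 0.04, -0.80 and 0.58, and that of the mipafox arrays was 0.97, 0.36 and -1.04, in the order of their letters. The lowest array of each exposure was thus below the highest of the other by more than 1. On slide 2 the median difference was 0.30, the opposite sign. HIST1H4E was at 1.77, 1.35 and 2.25 with paraoxon and at 3.05, 1.97 and 1.20 with mipafox, a difference of -0.28 (interval -1.29 to 0.72). HIST2H2BF and HIST1H3J were higher with paraoxon without overlap, by 0.48 (interval 0.10 to 0.86) and 0.63 (interval 0.07 to 1.20). The slide 2 interval of HIST1H3J, from -0.11 to 1.30, included 0. Of the 64 genes, 3 did not overlap with paraoxon higher and 0 with mipafox higher, where 4.19% and 5.15% of all genes did so. The first is near the share of all genes. HIST1H2AB differed by 0.03 and CBX3, a heterochromatin reader, by -0.08. The second CBX3 probe differed by 0.84 (interval -0.33 to 2.01), with mipafox A at -4.43 apart from mipafox B at -2.35 and C at -2.18.

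**Figure D5:**
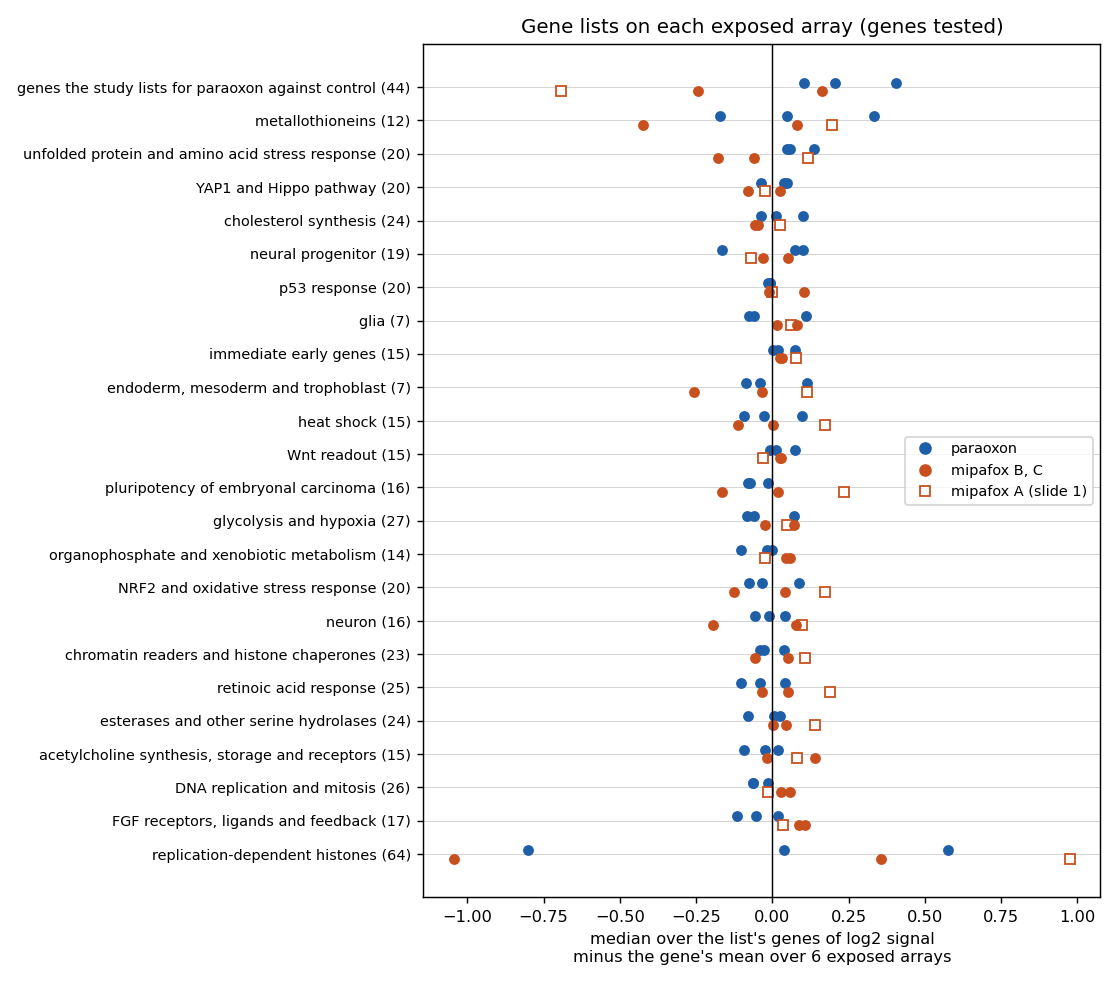
For each of 24 gene lists (number of genes tested in brackets), the median over its genes of the log2 signal on an array minus the gene's mean over the 6 exposed arrays, for each paraoxon and mipafox array. Histones spread from -1.04 to 0.97 with mipafox C lowest and mipafox A highest and the paraoxon arrays between them, while most other lists lie within 0.2 of 0.

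Of all probes tested 52.5% were higher with paraoxon, and of genes taken by their brightest probe 46.6%. Of 4601 long intergenic non-coding RNA probes tested, 3319 (72.1%) were higher, with a median of 0.12. Their medians relative to the 6 exposed arrays were 0.07, -0.09 and 0.25 with paraoxon and 0.02, 0.11 and -0.31 with mipafox. The exposures overlapped, with paraoxon B below mipafox A and B, and mipafox C the lowest of all. The median difference was 0.07 after quantile normalization, 0.04 in the authors' processed values and -0.02 with normexp background correction, where that of all probes was -0.04. On slide 2 it was 0.17, and 0.09 with normexp. With normexp the median was negative among the dimmer probes of the class, at -0.08 in the dimmest group of all probes ranked by signal, and positive among the brighter ones, at 0.15 in the brightest group. Probes of this class made up 32 of the 74 probes past the unadjusted limit (43.2%) and 16 of the 34 on slide 2 (47.1%), where they were 15.8% of the probes tested. The class was not alone in this. Of 3836 probes without a RefSeq gene symbol 65.3% were higher with paraoxon, with a median of 0.09. Their median was likewise highest on paraoxon C, at 0.163, and lowest on mipafox C, at -0.225. They made up 31.1% of the 74 and 20.6% of the 34, and 13.2% of the probes tested.

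The last list was that of the genes the study gives for paraoxon against control. It was drawn from these paraoxon arrays, so its direction here is not independent evidence. Of 44 tested, 34 were higher with paraoxon than with mipafox and 10 lower, with a median of 0.53. An unadjusted p under 0.05 was met by 13 of them, all higher, and by 1.51% (higher) and 1.32% (lower) of all genes. On slide 2 it was met by 5 of the list, all higher, where 1.12% of all genes were higher at that limit. None passed after adjustment. Relative to the 6 exposed arrays the median of the list was 0.20, 0.10 and 0.41 with paraoxon and -0.69, 0.16 and -0.24 with mipafox. Mipafox B thus lay within the paraoxon arrays, and mipafox A was level with the control arrays, at -0.64, -0.72 and -0.89. On slide 2 the median difference was 0.24. LOC646214 had the second smallest p of the list and was at 0.45, 0.44 and 0.22 with paraoxon and at -0.62, -0.07 and -0.36 with mipafox, a difference of 0.72 (interval 0.34 to 1.10). The part of the slide and that of the exposure in the values of mipafox A were not tested apart, since a single mipafox array lay on slide 1.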

How the data were processed

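Arrays were grouped by the treatment in their labels. Cy3 intensity values, on a linear scale, were extracted by the authors with Agilent Feature Extraction 10.5.1.1 and deposited for each of the 9 arrays. The authors' deposited log2 table served as an alternative, and 28771 of its rows were among the probes tested here. Positions follow the array files (hg19).

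For each array, control spots were removed and the log2 of the processed signal was centred on the 75th percentile of the remaining spots. Outlier-flagged spots were then left out and replicate spots were averaged. A probe was kept where a share of at least 0.5 of its spots was well above background on all arrays of 1 treatment or more and each treatment had 2 or more values. The resulting 29134 probes were fitted in limma 3.58.1 (R 4.3.3) with 1 mean per treatment over all 9 arrays, and p-values were adjusted by Benjamini-Hochberg. The 5 exposed arrays of slide 2 were fitted in the same way. Intervals are 95% intervals of these fits. A call required an adjusted p under 0.05 with a difference beyond 1. Precision is limited by the number of arrays. The fits were also run on simulated data with independent noise for each probe and array. Those data lack the slide split and the shared deviations of the real arrays, so they do not show how calls and intervals behave here.

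Genes are shown by the probe with the highest mean signal on the exposed arrays. Named genes were those called, those well above background on all 6 exposed arrays, beyond 1 and without overlap (up to 8 per side, and up to 4 per side on slide 2), 22 chosen genes (1 further gene of the rule is not reported here), and genes taken from the 2 of smallest p in each of 24 lists. NQO1 was named after its values were seen. The members and lists were chosen with earlier results of these data known. Alternatives changed the normalization, background correction, source of values, filter, slide and replicate terms, arrays, variance model, weights, probes per gene and flags. Figures were drawn with matplotlib 3.10.9.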

Additional observations from a re-analysis of the deposited data

How the results depend on the processing

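No probe was called in the fits of all arrays or of slide 2 under any alternative run, and the smallest adjusted p of all these fits was 0.221, with array weights. The number of probes past the unadjusted limit was 74 in all arrays and 34 on slide 2. It became 7 and 1 with normexp background correction, 9 and 1 in the authors' processed values, 248 and 290 with no filter on dim probes, and 26 and 8 among probes well above background on all 6 exposed arrays. With slide as a term it was 43. Leaving out 1 exposed array at a time gave 43 to 224 in all arrays and 64 to 710 on slide 2. An alternative added after seeing the data left out control C, paraoxon B and mipafox C, whose deviations went together, and gave 163, or 72 on slide 2. With a replicate block the number was 80, and 96 on slide 2 with letters B and C. The letters did not pair the arrays: deviations of the paraoxon and the mipafox array of a letter correlated at 0.235 for A, -0.598 for B and -0.43 for C.

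Several small differences turned sign. With slide as a term they were 0.268 for CES1, 0.0725 for CYP26A1, 0.206 for HIST1H4E and 0.00434 for CBX3, which are also the values without mipafox A. Quantile normalization gave 0.00132 for CYP26A1, normexp 0.00413 for CYP26A1 and -0.0164 for HIST1H2AB, and the authors' values 0.0598 for CYP26A1, 0.0146 for FGFR1 and -0.0184 for HIST1H2AB. The added alternative gave 0.0235 for SSBP3, -0.198 for POU5F1, -0.0399 for SOX2, -0.0771 for PAX6, -0.189 for MAP2, 0.301 for RARB, 0.075 for FGFR1, -0.0347 for AXIN2 and -0.163 for HIST1H2AB. Leaving out 1 exposed array gave -1.21 to 0.366 for CES1, -0.228 to 0.306 for POU5F1, -0.0922 to 0.362 for SOX2, -0.0396 to 0.187 for PAX6, -0.0937 to 0.205 for MAP2, -0.106 to 0.0725 for CYP26A1, -0.44 to 0.169 for RARB, -0.126 to 0.035 for FGFR1, -0.132 to 0.465 for AXIN2, -0.722 to 0.206 for HIST1H4E, -0.354 to 0.308 for HIST1H2AB and -0.199 to 0.00434 for CBX3. The cause was not tested. Dim probes limit what can be said of most genes past the unadjusted limit.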
